A study of Homo sapiens with 4 samples.

Results

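This report describes 10 genes whose surface proteins have been used to mark tumour-initiating cells of liver cancer: PROM1, EPCAM, CD44, CD24, ANPEP, THY1, CD47, ALCAM, LGR5 and ICAM1. They were taken by name, out of 19775 genes that the platform annotation names with a probe set of their own. A probe set is the group of short oligonucleotides that measures a transcript on the array, and 42 of the 54675 probe sets carry the symbol of one of these genes and no other. The cells were Huh7, an established human hepatocellular carcinoma line, divided by a flow cytometric sort into cells that displayed CD133 (the CD133+ population) and cells that did not (the CD133- population). Total RNA of each population was taken to be measured on 1 array, since its RMA and MAS5 entries have labels that differ only in the method, although the labels do not say outright that the array is the same. The labels name no other treatment or genotype, and both populations come from the same line.

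The deposited values come from a pair of summary methods, RMA and MAS5. RMA values are on a log2 scale and MAS5 signals on a linear scale. Both methods were taken to read the same arrays and were not treated as replicates. Differences are CD133+ minus CD133- on the log2 scale, from RMA unless MAS5 is named. The labels name no repeat of either population, so differences carry no replicate error and no test and describe these arrays only. A value was taken as above background when it exceeded 4.86 by RMA or 91.8 by MAS5. Each floor is the median, over all probe sets, of the brighter value of each probe set. A value called above or below the floor, with no method named, refers to RMA. The floor says only how bright a value is, since detection calls were not used here. For a probe set that was below it on the dimmer array, the fold is given against the floor, as a lower bound. In bulk RNA, fewer cells that express a gene and less RNA per cell cannot be told apart.

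Several of these proteins act in adhesion. EPCAM binds its own kind on neighbouring epithelial cells, CD44 binds hyaluronan of the matrix, ALCAM binds itself and the lymphocyte protein CD6, and ICAM1 binds leukocyte integrins. Others pass signals or process peptides. CD47 signals to SIRPA on macrophages and holds back engulfment, CD24 does so through SIGLEC10, LGR5 is a receptor for R-spondins that raises Wnt signalling, and ANPEP (CD13) removes amino acids from the ends of peptides. PROM1 (CD133) sits on membrane protrusions such as microvilli, and THY1 (CD90) is a small protein on a lipid anchor that is common on fibroblasts and neurons.

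The markers went in both directions. EPCAM and CD47 were just past 2-fold in CD133+ cells, at 2.27-fold and 2.10-fold higher, and CD44 was higher by RMA on all of its probe sets, 7 of which lay below the floor on both arrays. ANPEP and ICAM1 were higher by less, CD24 was nearly level, ALCAM was lower by a little, LGR5 was lower on its brighter probe set, and THY1 was not above the floor in either population. Of the 9 markers above the floor, 3 were at least 2-fold higher and 0 were at least 2-fold lower. Among all 12899 genes above the floor, 213 (1.65%) were at least 2-fold higher and 15 (0.116%) at least 2-fold lower. Of the 3, PROM1 is the gene of the sort itself. Without it, 2 of 8 markers were at least 2-fold higher, with a median difference of 0.32 against -0.01 for all genes above the floor. At the level of probe sets, 24 of the 42 lay above the floor and 8 of these were at least 2-fold higher as measured, while 1.2% of the 27337 probe sets above the floor were. The 8 are 1 of PROM1, 1 of EPCAM, 2 of CD47 and 4 of CD44, and probe sets of a gene share its transcripts. With the CD133- value raised to the floor where it lay below, 5 of the 8 were past 2-fold. By MAS5, 4 of 9 markers above the MAS5 floor were at least 2-fold higher and 0 at least 2-fold lower, against 4.47% and 1.71% of 12251 genes. The 4 were EPCAM, CD44, CD47 and PROM1, the gene of the sort. The list is short and was chosen with earlier results of these arrays known, so its counts are a description.

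**Figure D1:**
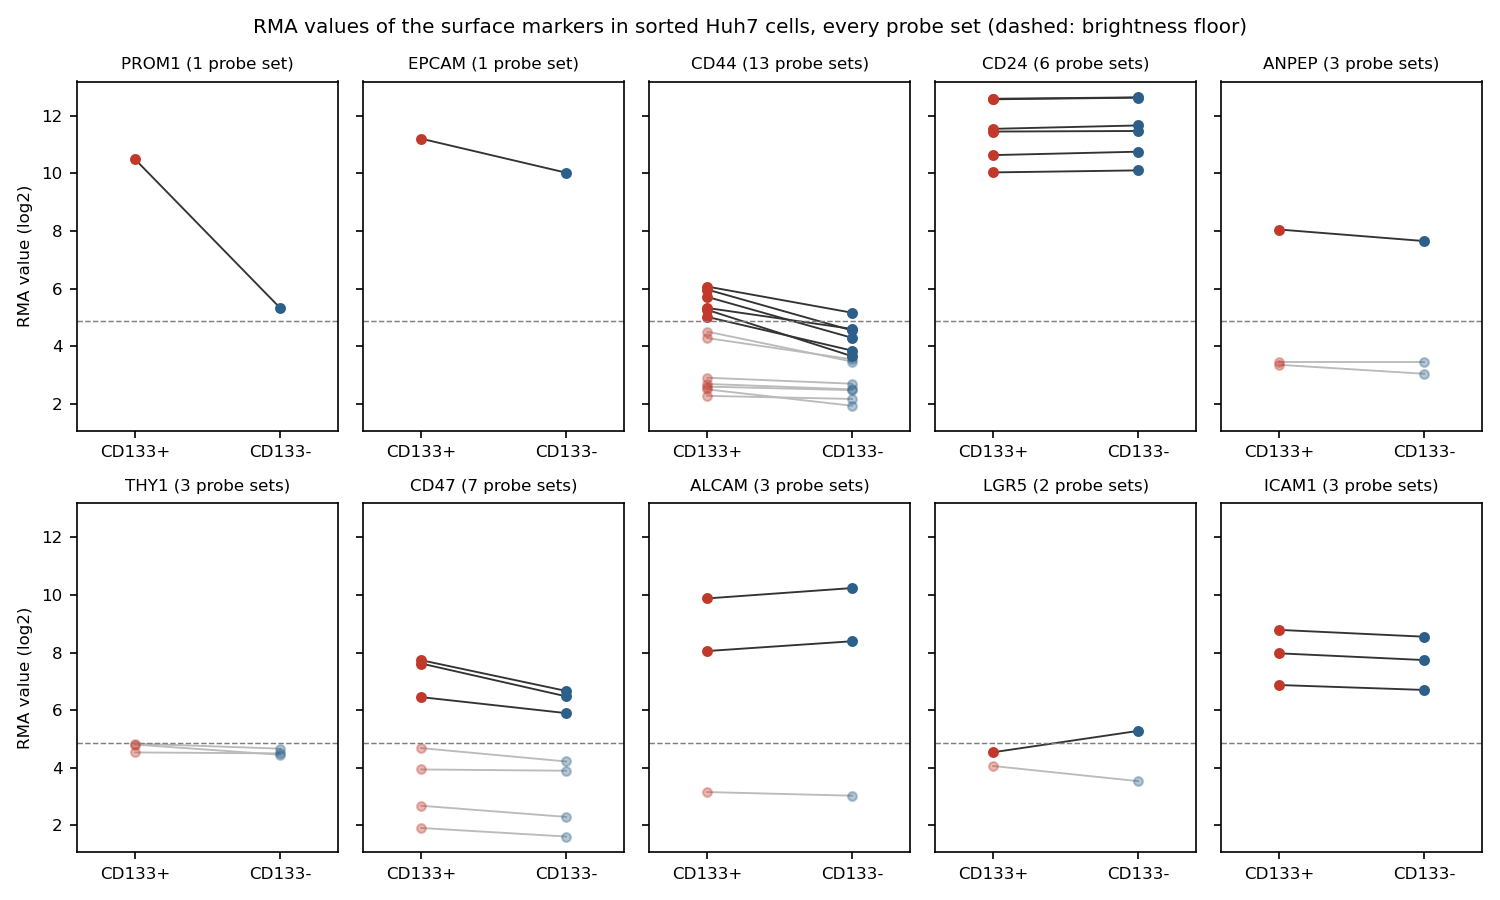
RMA values (log2) of all 42 probe sets of the 10 surface markers, with the CD133+ array at the left and the CD133- array at the right of each panel. Each line joins the values of 1 probe set, pale points lie below the floor of 4.86 (dashed) on both arrays, and PROM1 has the steepest line, while all 6 lines of CD24 are nearly flat.

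PROM1 was measured by 1 probe set, 204304_s_at. Its RMA value was 10.49 in CD133+ cells and 5.33 in CD133- cells, a difference of 5.16. Its MAS5 signals were 6737 in CD133+ cells and 233 in CD133- cells. The cells were sorted on the protein of this gene, so the difference checks the labels and is not a finding. It also shows that the CD133- array stayed above both floors for PROM1. No gene above the floor had a higher difference.

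EPCAM is a marker of bile duct and progenitor cells in liver and is largely absent from mature hepatocytes. It had an RMA value of 11.21 in CD133+ cells and 10.03 in CD133- cells, a difference of 1.18. MAS5 gave 10157 in CD133+ cells and 4263 in CD133- cells, a 2.38-fold difference. Both values were well above the floor, so the EPCAM signal was bright in both populations and differed in size. It ranked 152nd from the top among the 12899 genes, so 1.18% of them were at least as high. Its only probe set is of the kind, marked _s_at or _x_at, that can also match related transcripts.

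CD47 was represented by 7 probe sets, and all 7 were higher in CD133+ cells by RMA. The probe set with the brightest values had 7.73 in CD133+ cells and 6.66 in CD133- cells, a difference of 1.07. A second one, 213857_s_at, had 7.62 in CD133+ cells and 6.48 in CD133- cells, a difference of 1.14. The third above the floor, 226016_at, differed by only 0.56, with MAS5 signals of 406 in CD133+ cells and 261 in CD133- cells. Thus 2 of the 3 probe sets above the floor were past 2-fold, and the third, which is not of the shared kind, was 1.47-fold higher. The other 4 lay below the floor and differed by 0.04 to 0.46. On these dim probe sets the methods did not always have the same direction: 213055_at had MAS5 signals of 19.1 in CD133+ cells and 77.4 in CD133- cells. CD47 ranked 193rd from the top.

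CD44, the hyaluronan receptor, was dim in both populations, and the size of its difference depended on the probe set. All 13 of its probe sets were higher in CD133+ cells by RMA, 6 of them above the floor in CD133+ cells. By MAS5, 2 of the dim ones went the other way, 234411_x_at by -0.36 and 1565868_at by -3.52. The brightest, 204489_s_at, had RMA values of 6.07 in CD133+ cells and 5.16 in CD133- cells, a 1.88-fold difference that falls short of 2-fold. MAS5 gave 201 in CD133+ cells and 13.1 in CD133- cells for the same probe set. The CD133- signal lay below the MAS5 floor, so the MAS5 difference was at least 2.18-fold.

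The other 5 CD44 probe sets above the floor reached it only in CD133+ cells. Probe set 212063_at, not of the shared kind, had 5.96 in CD133+ cells and 4.54 in CD133- cells, at least 2.15-fold higher against the floor. Its MAS5 signals, 352 in CD133+ cells and 137 in CD133- cells, were both above the MAS5 floor and differed 2.57-fold. For 209835_x_at the measured difference was the largest of the gene by RMA, 1.61, but its bound against the floor was 1.32-fold. In the values as measured, the 6 probe sets differed by 0.73 to 1.61, with a median of 1.30, and 4 of them were past 2-fold. All 4 lay below the floor in CD133- cells, and against the floor only 212063_at stayed past 2-fold. The bounds of 204490_s_at, 209835_x_at and 212014_x_at were 1.80-fold, 1.32-fold and 1.11-fold. Among the 6042 genes with at least 2 probe sets above the floor, all were higher in CD133+ cells for 24.5%, and most were past 2-fold as measured for 0.844%. Probe sets 212063_at and 204490_s_at had the same RMA difference to the last deposited digit, 1.42, although their values differed. No other gene had such a pair among the probe sets above the floor. Both are in the counts of probe sets above, so these counts may hold a measurement that is not independent. By MAS5 they differed by 1.36 and 0.75.

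**Figure D2:**
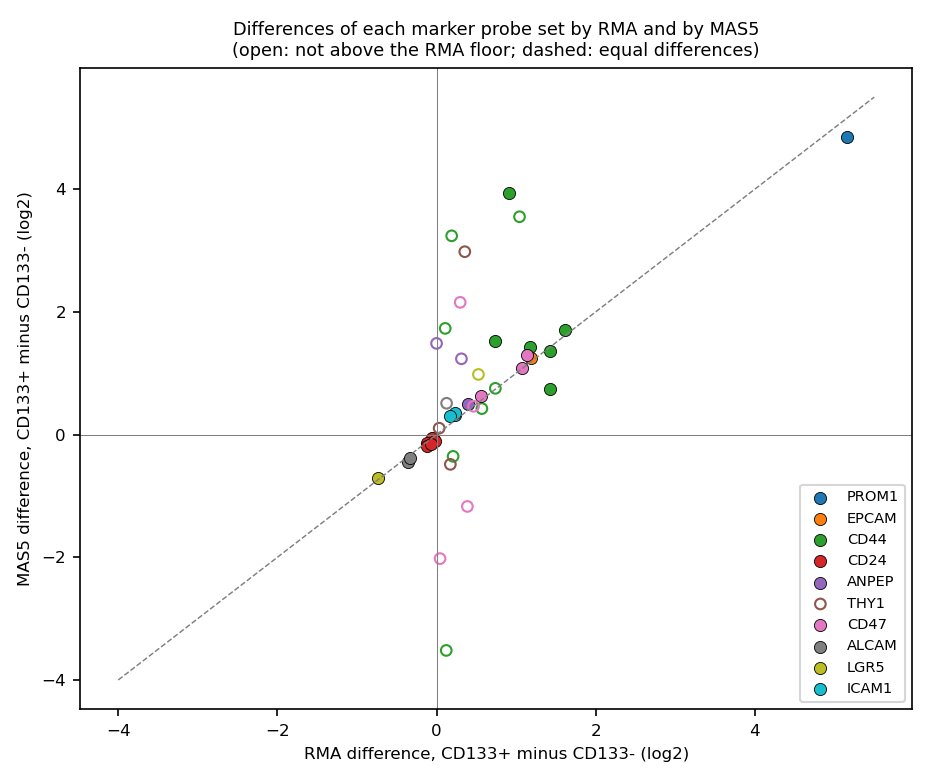
Difference of each marker probe set by RMA (horizontal axis) and by MAS5 (vertical axis), both CD133+ minus CD133- on the log2 scale, with filled points for probe sets above the RMA floor. All 24 filled points have the same direction by both methods, and the CD44 point at 0.91 by RMA and 3.94 by MAS5 has a CD133- signal below the MAS5 floor, against which its difference is at least 2.18-fold.

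CD24, a small mucin-like protein on a lipid anchor, was bright and nearly level. All 6 of its probe sets were above the floor in both populations, and all 6 were slightly lower in CD133+ cells, by -0.02 to -0.12. The brightest had 12.60 in CD133+ cells and 12.65 in CD133- cells. The MAS5 signals of that probe set were 36975 in CD133+ cells and 38299 in CD133- cells. The SD of differences between probe sets of the same gene, over the 6042 genes, was 0.17, which is wider than any of these. That SD describes disagreement between probe sets and not error between arrays, which 1 array per population cannot give. All 6 probe sets are marked _s_at or _x_at, and processed copies of CD24 exist in the genome, so their share of the signal is uncertain.

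ALCAM (CD166) was lower in CD133+ cells on both of its bright probe sets. Probe set 201952_at had 9.88 in CD133+ cells and 10.24 in CD133- cells, and 201951_at had 8.05 in CD133+ cells and 8.39 in CD133- cells. The differences were -0.36 and -0.34, and -0.46 and -0.38 by MAS5. Neither probe set is of the shared kind. Of the 6042 genes with several probe sets above the floor, 32.3% were lower on all of them, so the shared direction alone is common. By size, 4.02% of genes were at least as low as ALCAM.

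ICAM1, the integrin ligand that inflammatory signals induce on many cells, was higher by a small amount on all 3 of its probe sets. The brightest had 8.79 in CD133+ cells and 8.55 in CD133- cells. The 3 differences ran from 0.17 to 0.24, and from 0.30 to 0.35 by MAS5. ANPEP was higher by 0.40 on its only probe set above the floor, with 8.05 in CD133+ cells and 7.65 in CD133- cells, and by 0.49 on the MAS5 scale. Its other 2 probe sets lay below the floor, and one of them, 234576_at, had the value 3.44 on both arrays. Of all genes above the floor, 12.8% were at least as high as ICAM1 and 6.27% at least as high as ANPEP.

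LGR5, a Wnt target and stem-cell marker of gut epithelium, was near the floor, and its probe sets differed in direction. Probe set 213880_at had 4.53 in CD133+ cells, below the floor, and 5.27 in CD133- cells, at least 1.33-fold lower in CD133+ cells. Its MAS5 signals were 148 in CD133+ cells and 241 in CD133- cells, both above the MAS5 floor. Probe set 210393_at, below the floor on both arrays, had 4.05 in CD133+ cells and 3.53 in CD133- cells, the opposite direction. THY1 was not above either floor on any of its 3 probe sets. The highest RMA values were 4.83 in CD133+ cells and 4.66 in CD133- cells, and the MAS5 signals ran from 10.3 to 59.7 in CD133+ cells and from 7.56 to 24.3 in CD133- cells. No fold is given for it.

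**Figure D3:**
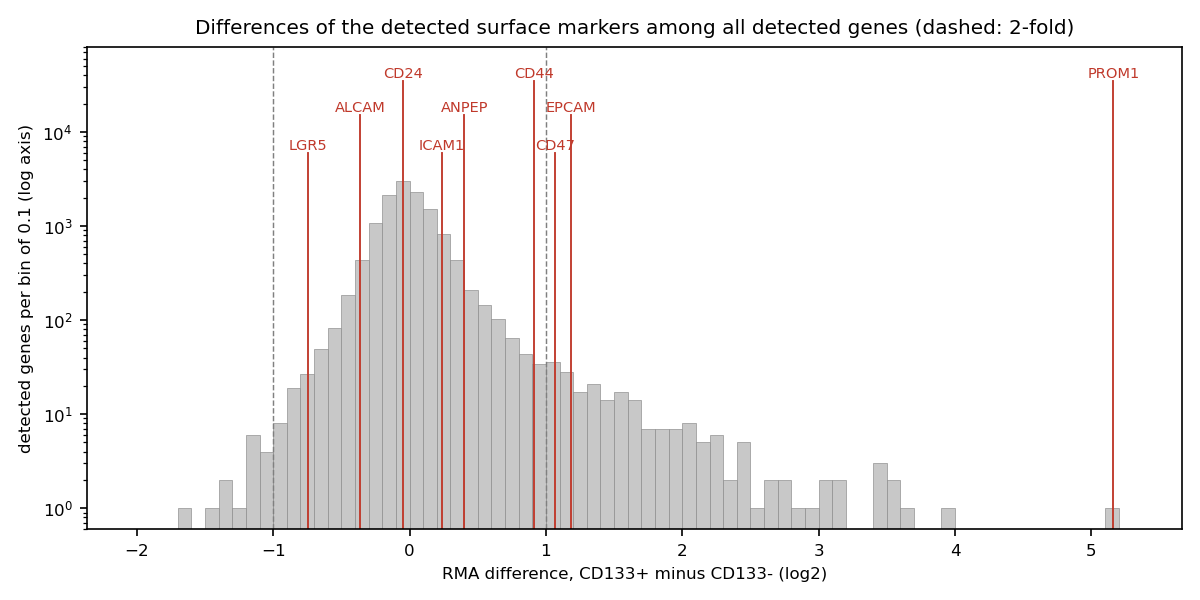
Number of genes above the floor (vertical log axis) by RMA difference, CD133+ minus CD133- (horizontal axis, log2, in bins of 0.1), with a line for each of the 9 markers above the floor. PROM1 lies apart at 5.16, EPCAM, CD47 and CD44 lie in the upper shoulder around the 2-fold line, and LGR5, below the floor in CD133+ cells, is drawn at its measured -0.74.

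Promoter sequence was set beside these values for PROM1, CD44 and CD47, which had probe sets past 2-fold, and for ICAM1, whose promoter holds a known NF-kappaB site. The RefSeq table of assembly GRCh38.p14 was matched by symbol for 7 of the 10 markers, with 13 starts in all, and EPCAM, LGR5 and THY1 are not shown. The 250 bases before the start are shown 5′ to 3′ on the gene's strand for PROM1 (the outermost of 4 listed starts), CD44, CD47 and ICAM1. Capitals mark every match, on either strand, to any of 5 motifs. The first is the NF-kappaB site known from ICAM1, GGAAATTCC. The TATA box was searched as TATAAA, and the GC box of the Sp1 family as GGGCGG. The next motif, the box that the factor NF-Y binds, was searched as CCAAT. The AP-1 site was searched as TGANTCA, where N is any base.
PROM1, chr4:16084024-16084273, minus strand: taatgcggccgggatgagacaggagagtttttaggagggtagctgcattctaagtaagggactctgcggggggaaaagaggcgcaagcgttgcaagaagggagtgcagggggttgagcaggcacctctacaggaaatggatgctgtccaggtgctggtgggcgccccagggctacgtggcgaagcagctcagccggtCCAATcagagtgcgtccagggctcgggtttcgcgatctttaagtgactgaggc
CD44, chr11:35138921-35139170, plus strand: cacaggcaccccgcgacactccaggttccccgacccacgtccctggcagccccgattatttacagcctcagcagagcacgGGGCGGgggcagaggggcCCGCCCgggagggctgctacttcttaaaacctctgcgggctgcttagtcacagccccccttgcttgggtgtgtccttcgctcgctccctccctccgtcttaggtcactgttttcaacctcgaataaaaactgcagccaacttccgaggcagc
CD47, chr3:108091032-108091281, minus strand: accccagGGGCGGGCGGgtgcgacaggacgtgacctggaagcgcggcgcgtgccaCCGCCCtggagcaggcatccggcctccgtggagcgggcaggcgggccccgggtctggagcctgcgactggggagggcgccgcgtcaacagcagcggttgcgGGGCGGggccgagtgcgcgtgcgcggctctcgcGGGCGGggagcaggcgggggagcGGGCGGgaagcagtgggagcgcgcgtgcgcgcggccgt
ICAM1, chr19:10270870-10271119, plus strand: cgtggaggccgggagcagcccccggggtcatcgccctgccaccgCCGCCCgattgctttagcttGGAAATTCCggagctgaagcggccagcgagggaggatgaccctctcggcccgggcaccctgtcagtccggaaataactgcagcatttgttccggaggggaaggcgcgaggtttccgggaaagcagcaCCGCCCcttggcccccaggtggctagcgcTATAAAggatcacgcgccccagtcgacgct

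No motif matched in all 3 of the windows shown for PROM1, CD44 and CD47. The CD47 window held 6 matches to the GC box, overlapping ones included, and the CD44 window held 2, while the PROM1 window held none of them and a single match to the NF-Y box. Another of the PROM1 starts, the third from the outermost, has a window with 1 GC box, and the innermost has a window with 1 AP-1 match. The ICAM1 window held the NF-kappaB letters, starting 186 bases before the start, and also a TATA match and 2 GC boxes. Of all 35116 windows of the same length in the table, 0.413% hold the NF-kappaB letters, 10.7% the TATA letters, 42.6% the GC box, 32% the NF-Y letters and 6.57% the AP-1 letters. A match is a description of the letters and not of binding, and the array does not tell which of the PROM1 starts was used. Among windows not shown, the outer of the 2 for ANPEP held 4 GC boxes and that of ALCAM held 1. The windows held 15 CG pairs for CD44, 39 for CD47 and 23 for ICAM1, against a median of 11 over the table. Markers whose windows are not shown had similar counts, with 20 CG pairs for ALCAM, 20, 27 and 17 for CD24, and 26 and 9 for ANPEP. The 4 PROM1 windows held 13, 26, 17 and 5, from the outermost start inwards.

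Ligands, partners, paralogs and processing enzymes of the markers were read next, together with other genes used to mark liver cancer stem cells. They formed 10 lists with 133 genes, of which 125 were analysed and 94 lay above the floor. Of these, 7 (7.45%) were at least 2-fold higher in CD133+ cells in the values as measured and 0 were at least 2-fold lower, against the 1.65% and 0.116% of all genes given above. With values below the floor raised to it, 5 were at least 2-fold higher, without ESRP1 and THBS1, and so were 1.33% of all 12899 genes. Their median difference was 0.04, and 54 were higher and 38 lower, beside 5885 higher and 6596 lower among all 12899 genes. The direction counts of single lists below are to be read beside that split. As with the 10 markers, the lists were chosen with earlier results of these arrays known, so their counts are a description. The 7 were CLDN7, SPINT1, ESRP1, THBS1, DPP4, ABCG2 and KRT19, and all 7 were also at least 2-fold higher by MAS5. Of these, ABCG2 and KRT19 come from the list of other stem-cell markers and are not partners or relatives of the 10 genes.

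Genes around EPCAM held 2 of them. CLDN7, a tight junction claudin that forms a complex with EPCAM, had 8.13 in CD133+ cells and 6.26 in CD133- cells, a 3.65-fold difference. SPINT1, which encodes an inhibitor of the membrane protease matriptase, had 6.88 in CD133+ cells and 5.36 in CD133- cells, a 2.85-fold difference. Its other probe set differed by only 0.26, and by -0.14 by MAS5, so the size depends on the probe set. TSPAN8, a tetraspanin found with EPCAM and CLDN7, was higher by 0.84. Among the proteases listed with EPCAM, ADAM17 differed by -0.04, ADAM10 by -0.11, and the gamma-secretase subunits NCSTN and PSEN2 by 0.26 and -0.20. CTSL differed by 0.28, and BACE1 by -0.34, or -0.58 by MAS5. Matriptase itself (ST14) differed by 0.04. Of 13 genes of this list above the floor, 9 were higher and 4 lower, with a median of 0.15.

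Around CD44, ESRP1 was past 2-fold in the values as measured. It encodes a splicing factor of epithelial cells that favours the long, variable forms of CD44. ESRP1 had 5.73 in CD133+ cells and 3.99 in CD133- cells, the second value below the floor, so it was at least 1.83-fold higher. Its other probe set was higher by 0.78, also with the CD133- value below the floor. The probe sets are not annotated by exon in the tables used, so the forms of CD44 were not separated. The sheddases MMP14 and ADAM10 differed by 0.34 and -0.11, the hyaluronan synthase HAS3 by -0.29, and the ligand osteopontin (SPP1) by -0.18. Of 9 genes above the floor, 5 were higher and 4 lower.

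CD47 binds thrombospondin 1 as well as SIRPA. THBS1 had 5.45 in CD133+ cells and 4.20 in CD133- cells, at least 1.51-fold higher. Its second probe set above the floor differed by 1.38 as measured and was at least 1.29-fold higher against the floor. SIRPA itself, measured in the tumour cells, was lower by a little (-0.28). Other signals that macrophages read differed less: B2M, which blocks engulfment through LILRB1, by 0.22, the pro-engulfment protein calreticulin (CALR) by -0.06 and its receptor LRP1 by -0.13. QPCTL, the enzyme that matures the SIRPA-binding end of CD47, and SIGLEC10 lay below the floor in both populations. CD274 (PD-L1) did too, with MAS5 signals of 95.0 in CD133+ cells and 53.6 in CD133- cells around the MAS5 floor.

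DPP4 (CD26), another of the 7, is a peptidase of the cell surface like ANPEP and was past 2-fold on all of its probe sets. Its 3 probe sets differed by 1.49, 1.42 and 1.49, or 2.67-fold to 2.80-fold. The first had 9.18 in CD133+ cells and 7.69 in CD133- cells. Relatives of ANPEP differed by less, with TRHDE at 0.46, ERAP1 at 0.26 and NPEPPS at 0.12, while ENPEP and MME were below the floor. The MAS5 signal of ENPEP was 75.5 in CD133+ cells and 149 in CD133- cells, the second above the MAS5 floor. Of 6 peptidase genes above the floor, 5 were higher and 1 was lower.

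Genes above the floor in the other 5 lists described here did not reach 2-fold by RMA. In the LGR5 list, 6 of 14 genes lay above the floor, and they ranged from -0.34 for ZNRF3, the ligase that removes Wnt receptors, to 0.15 for the Wnt target AXIN2. The LGR5 paralog LGR4 had 8.64 in both populations. In the ICAM1 list, 11 genes ranged from -0.56 for the adhesion molecule VCAM1 to 0.63 for NFKBIA, the inhibitor that NF-kappaB induces. The paralogs of ICAM1 went both ways, with ICAM3 at -0.41, ICAM4 at -0.42, ICAM2 at -0.02 and ICAM5 at 0.22. The ALCAM and THY1 list ranged from -0.21 for BCAM to 0.46 for the integrin subunit ITGAV, with the ALCAM paralog MCAM at -0.14. The enzymes that build the lipid anchor of CD24 and THY1 ranged from -0.65 for PGAP1 to 0.16 for PIGT. Among 13 microvillus genes, 10 were higher and 3 lower, from -0.35 for CDHR2 to 0.78 for the brush border motor MYO1A, and the PROM1 paralog PROM2 differed by -0.03.

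**Figure D4:**
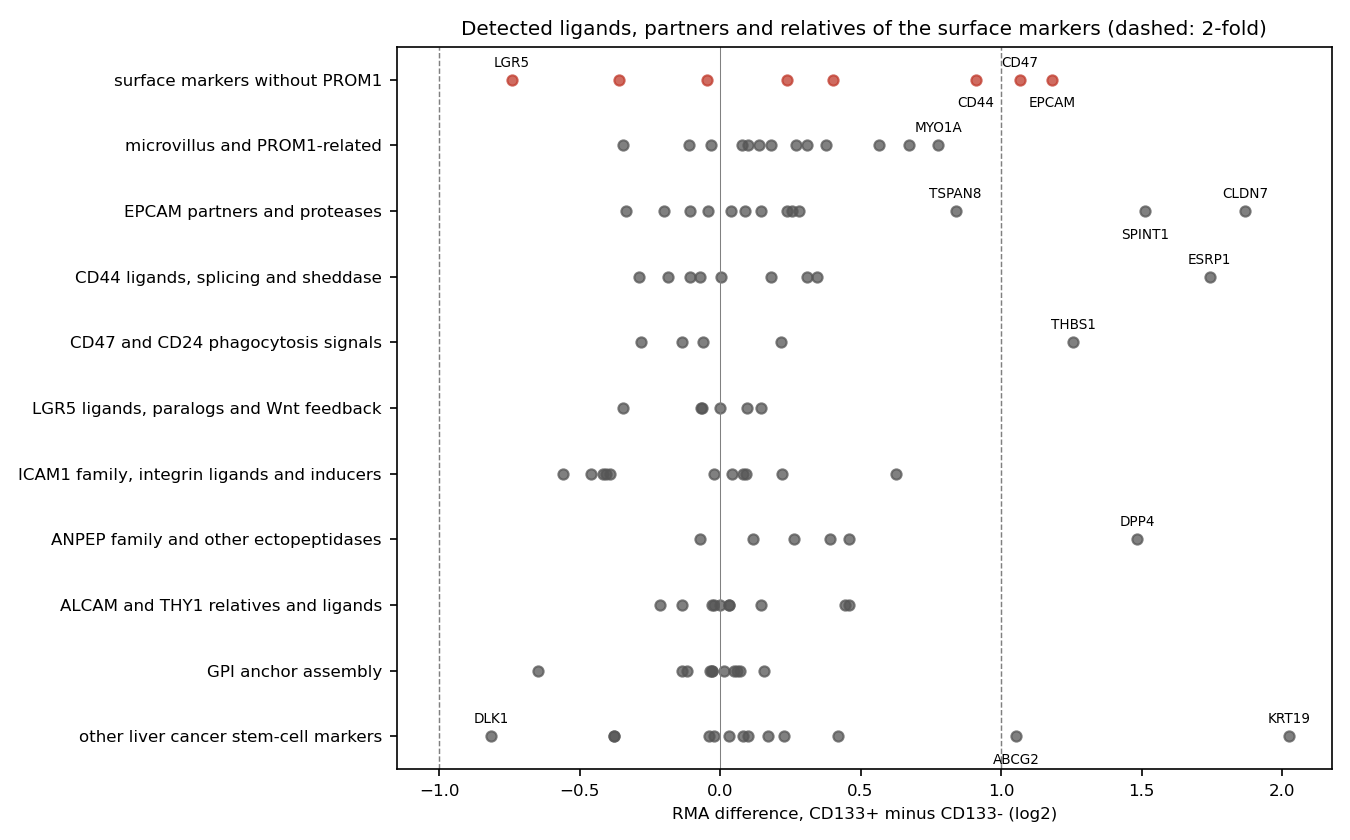
RMA difference, CD133+ minus CD133- (log2), of every gene above the floor in the lists of ligands, partners and relatives and of other liver cancer stem-cell markers. The surface markers without PROM1 are in the top row. Genes past 0.7 in size are named, and the 7 related genes to the right of the 2-fold line are KRT19, CLDN7, ESRP1, SPINT1, DPP4, THBS1 and ABCG2.

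Other genes used to mark liver cancer stem cells also went in both directions. The bile duct keratin KRT19 was 4.07-fold higher, with 10.54 in CD133+ cells and 8.52 in CD133- cells. The efflux pump ABCG2 was 2.08-fold higher. DLK1, a fetal liver marker, was lower by 0.82, while AFP (0.03), ALDH1A1 (-0.02), SOX9 (-0.04) and GPC3 (0.17) were nearly level. Of 13 such genes above the floor, 8 were higher and 5 lower, with a median of 0.08.

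Marker lists of cell types were measured beside these genes. All 8 hepatocyte genes, such as ALB, lay above the floor, with a summed MAS5 signal of 314899 in CD133+ cells and 314199 in CD133- cells. The near-equal sum hides differences of both signs. By RMA 3 of these genes were higher and 5 lower, from -0.50 for AHSG to 0.55 for TTR. The summed signal of 5 bile duct genes was 13324 in CD133+ cells and 7758 in CD133- cells. KRT19 gave 7772 of it in CD133+ cells and 1786 in CD133- cells, and SOX9 gave 4263 in CD133+ cells and 4740 in CD133- cells. The sum over 7 fibroblast and stromal genes was 2818 in CD133+ cells and 1447 in CD133- cells. Of the 4 above the floor, LUM and COL1A2 were at least 2-fold higher in CD133+ cells, while COL1A1 differed by 0.04 and PDGFRB by -0.25. The genes DCN, ACTA2 and COL3A1 lay below it, as did THY1. Of 5 blood cell genes, 4 lay above the floor and 0 differed 2-fold, and the common leukocyte gene PTPRC lay below it. Of the 4, LYZ was bright, with 11.11 in both populations. The others were dimmer, with 5.66, 5.11 and 5.33 in CD133+ cells for CD14, CD3E and HBB. Of 6 endothelial genes, 2, PECAM1 and VWF, lay above the floor, and CDH5 did not. The part of these differences in the marker values was not tested.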

How the data were processed

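Total RNA of sorted Huh7 cells was taken to be hybridised to 1 array per population. The deposited table holds 4 columns, a MAS5 and an RMA column per population. The MAS5 columns hold linear signal intensity per probe set, per the labels; the authors scaled them, since the mean after trimming 2% from each end is 500.1 on both. MAS5 and GCOS are named, without versions, per the submitters' processing notes. The authors' RMA values are deposited on a log2 scale; the software behind them is not given in the sources used here. Their similar distributions hide any global shift.

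Symbols came from the platform annotation and were updated through Entrez numbers to GRCh38.p14 for 41043 of 41097 probe sets with 1 symbol. Probe sets with several symbols (1801) or none listed (11777) named no gene. Each gene was read on the probe set whose RMA values had the highest mean, and called at 2-fold. Depth does not apply to arrays; their number limits the precision. No test was run. Members and lists were chosen with earlier results of these data known. All members were named, with every probe set; of each related list, genes past 2-fold or else the extremes; others were named for their role after their values were seen. The call rule was tested on simulated data with changes placed only in genes well above the floor, so the test does not cover calls near it. Python 3.11.15, pandas 2.3.3, numpy 2.4.6 and matplotlib 3.10.9 were used.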

Additional observations from a re-analysis of the deposited data

How the results depend on the processing

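The members' median difference (0.40 over 9 markers) and their counts (3 higher, 0 lower) were recomputed with MAS5, without a floor, with a floor at the 75th percentile, with the mean over probe sets, without shared probe sets, with the probe set of brightest MAS5 signal, after centring, and at 1.5-fold. The count of higher markers was 4 by MAS5, with the probe set of brightest MAS5 signal and at 1.5-fold, each time with CD44 added. It was 2 with the mean over all probe sets, where CD47 differed by 0.57. The markers counted were 9 in the main setting, 10 without a floor, and 7 with the 75th percentile floor or the mean over all probe sets. Without shared probe sets 4 markers remained to be counted, PROM1 and EPCAM not among them; the median was 0.10 and 1 marker, CD44 at 1.42, was past 2-fold, while CD47 differed by 0.56. At 1.5-fold, 1 marker was lower in the values as measured (LGR5, whose bound against the floor is 1.33-fold). At that fold 11 related genes were higher and 2 lower, against 7 and 0 at 2-fold. The share of all genes past 1.5-fold was not computed, so the 1.5-fold counts have no background beside them. The mean over probe sets above the floor, an alternative chosen after seeing the data, gave CD44 a difference of 1.21 and CD47 one of 0.92, so the count stayed at 3 with CD44 in place of CD47. With values below the floor raised to it, also chosen after seeing the data, the markers past 2-fold numbered 3 higher and 0 lower, the related genes 5 higher and 0 lower, and LGR5 differed by -0.42. PROM1, the gene of the sort, is in every count of higher markers here except the one without shared probe sets. No called marker changed sign in any of these settings. CD44, LGR5 and THY1 lie at or near the floor, which limits the size of their differences more than that of the others.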

Other observations

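Dim probe sets carried little. Of the 42 marker probe sets, 18 lay below the RMA floor on both arrays, and 12 of these had the same direction by RMA and MAS5, against 24 of the 24 above it. Among the dim ones, 234576_at of ANPEP had equal RMA values and so could not be counted with a direction. Both methods were taken to read the same arrays, so a shared direction is not independent support. The shares over all probe sets were not computed. Only 1 of the 18, a CD44 probe set with 4.50 in CD133+ cells and 3.46 in CD133- cells, differed at least 2-fold by RMA.

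A further epithelial gene from the bile duct list, the chloride channel CFTR, was higher in CD133+ cells. Its RMA values were 5.24 in CD133+ cells and 4.07 in CD133- cells, at least 1.31-fold higher against the floor. Its MAS5 signals were 184 in CD133+ cells and 28.5 in CD133- cells, the second below the MAS5 floor. The keratin KRT7 of the same list differed by 0.08.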
